A study of Homo sapiens with 6 samples.

Results

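Genes for 8 amino acid carriers of the plasma membrane were followed in HCT116, a human colorectal cancer cell line, with and without induction of a short hairpin RNA against CAPG, an actin filament capping protein. They were SLC7A5, SLC43A1, SLC1A5, SLC1A4, SLC38A1, SLC38A2, SLC7A1 and SLC6A9, chosen by name as amino acid carriers other than the cystine importer. All 8 were found among the 60643 genes of the deposited expression table, each in a single row. The group called +Dox held 3 libraries from cells with the inducible hairpin (labelled shCAPG-2), labelled CAPG Knockdown and given doxycycline for 3 days, with a labelled dose of 100 ng/µl. The group called -Dox held 3 libraries of the same hairpin-carrying cells without the drug, which the labels call WT and untreated. Every library carried the same hairpin, and libraries given doxycycline without it were not analysed here, so the drug and the hairpin cannot be told apart. The labels do not say whether the cells were a clone or a pool. They also do not say that replicates came from separate cultures, so each p-value reflects the spread between these 3 libraries a group, which may be technical.

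Cells take up amino acids through several carrier families that differ in substrate and in what drives them. SLC7A5 (LAT1) exchanges intracellular glutamine for leucine and other large neutral amino acids and reaches the surface only when joined to the heavy chain SLC3A2. SLC1A5 (ASCT2) and the SLC38 carriers bring in glutamine and small neutral amino acids with sodium. In tumour cells, the leucine and arginine that such carriers bring in are known to activate the growth-controlling kinase complex mTORC1. Several of their genes are known targets of ATF4, the transcription factor of the amino acid and endoplasmic reticulum stress responses, or of MYC.

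The targeted gene and the cell identity were checked first. CAPG averaged 8.73 ± 1.08 FPKM in +Dox cells and 57.2 ± 3.75 FPKM in -Dox cells (SD, n = 3 each), so 15.3% of its level was left, and the groups did not overlap (log2 change -2.59, limma adjusted p = 7.24e-06). FPKM is the fragment count per kilobase of transcript, scaled to library size. Of 8 markers of colon epithelium, 7 reached a mean of 1 FPKM, among them EPCAM and the keratin genes KRT8 and KRT18, while the villin gene VIL1 was near 0 (0.0549 FPKM in +Dox and 0.0547 FPKM in -Dox). The summed level of the 8 was 1941 to 2289 FPKM in +Dox and 1739 to 1959 FPKM in -Dox, and EPCAM itself rose (241 ± 20.0 FPKM in +Dox, 190 ± 8.12 FPKM in -Dox, limma adjusted p = 0.0401). It was the 1 called of 7 tested markers, of which CLDN7 alone had a negative log2 change (-0.19, adjusted p = 0.253). The summed level of the 6 fibroblast markers lay at 7.57 to 9.78 FPKM in +Dox and 7.95 to 11 FPKM in -Dox, nearly all of it from COL1A1, and 2 of the 6 were at 0. The 6 leukocyte markers summed to 2.73 to 3.38 FPKM in +Dox and 5.05 to 5.18 FPKM in -Dox, with 1 of them at 0. CD68, the one above 1 FPKM, fell (2.01 ± 0.380 FPKM in +Dox, 3.94 ± 0.476 FPKM in -Dox, log2 change -0.72, limma adjusted p = 0.0167). The 5 endothelial markers summed to 0.190 to 0.599 FPKM in +Dox and 0.232 to 0.333 FPKM in -Dox. The part of these differences in the transporter values was not tested. Estimated depth was 17600000 to 18300000 fragments in +Dox and 14200000 to 17700000 fragments in -Dox libraries. Replicate 3 of +Dox stood apart in its FPKM total, 586911 against 521832 to 536037 in the other 5 libraries.

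No transporter gene passed the test for a difference between +Dox and -Dox cells. A gene was called when its limma p-value, adjusted over all 14475 genes tested, was below 0.05. By that rule none of the 8 was called, whereas the share called among all tested genes was 8.46% (3.69% higher in +Dox, 4.77% lower). With 8 genes, a count of 0 does not set them apart from that share. At an unadjusted limma p below 0.05, 3 of the 8 were higher in +Dox and 0 lower, against 27.9% over all tested genes (13.6% higher, 14.3% lower). These 3, SLC1A4, SLC6A9 and SLC7A5, were also those whose libraries did not overlap between the groups. Among all tested genes, 34.5% did not overlap, 17% with +Dox above -Dox and 17.5% with it below. The median log2 change of the 8 genes was 0.06, against -0.0026 for all tested genes. All 8 passed the filter of 1 FPKM in at least 3 libraries, SLC6A9 with 5 libraries at that level and the others with 6. In bulk RNA, fewer cells expressing a gene and less RNA per cell cannot be told apart.

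**Figure D1:**
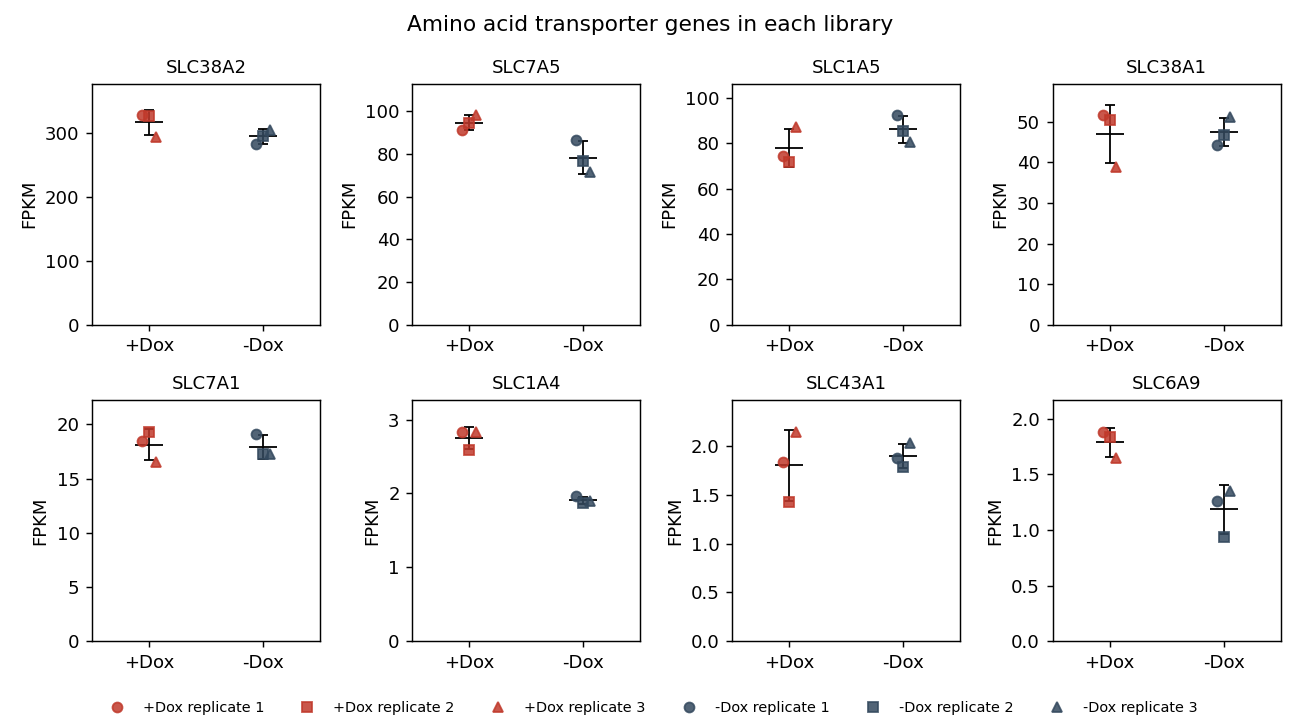
FPKM of the 8 transporter genes in each library, 1 panel a gene, each axis from 0; +Dox on the left and -Dox on the right, symbols marking replicates 1 to 3, with black bars for the mean and SD (n = 3). The groups do not overlap for SLC7A5, SLC1A4 and SLC6A9, and overlap for the other 5 genes.

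Promoter windows of the transporter genes are shown because regulators of this family moved in the same libraries, as given further below. RefSeq windows (GRCh38.p14) were found for 8 of the 8 genes, 13 windows in all, since some genes have several starts. Each was searched on both strands, over 251 bases that end with the start base, for the ATF4 response element core TGATGNAA and for the E-box CACGTG, a motif that MYC binds. The core was in 2 windows, of SLC1A4 and SLC1A5, and in 3.16% of all 35116 windows of that length. The E-box was in 3 windows, of SLC7A5, SLC1A5 and SLC43A1, and in 6.37% of all windows. No window held both motifs. Capitals below mark the motif.
SLC1A4, chr2:64989149-64989399, plus strand: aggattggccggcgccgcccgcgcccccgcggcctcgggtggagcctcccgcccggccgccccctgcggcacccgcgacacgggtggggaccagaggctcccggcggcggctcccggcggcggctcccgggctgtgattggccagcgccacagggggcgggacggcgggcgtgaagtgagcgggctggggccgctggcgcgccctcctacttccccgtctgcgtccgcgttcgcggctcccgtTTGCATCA
SLC1A5, chr19:46784814-46785064, minus strand: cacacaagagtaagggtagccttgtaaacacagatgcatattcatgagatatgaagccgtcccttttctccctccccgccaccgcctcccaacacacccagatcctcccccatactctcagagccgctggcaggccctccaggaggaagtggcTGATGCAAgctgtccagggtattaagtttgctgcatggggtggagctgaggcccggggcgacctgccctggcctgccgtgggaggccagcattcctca
SLC7A5, chr16:87869507-87869757, minus strand: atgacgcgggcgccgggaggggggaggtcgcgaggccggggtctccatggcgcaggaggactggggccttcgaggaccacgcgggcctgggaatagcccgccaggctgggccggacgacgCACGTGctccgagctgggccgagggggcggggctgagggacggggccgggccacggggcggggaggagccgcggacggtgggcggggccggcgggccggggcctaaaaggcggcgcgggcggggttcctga
All are printed in the direction of the gene. The SLC1A4 window holds the core against that direction, read as TTGCATCA, with its first base 7 bases before the start, the downstream one of the 2 listed for this gene. In the SLC1A5 window, that of the most downstream of 3 listed starts, the core TGATGCAA lies in the direction of the gene, 97 bases before it. The SLC7A5 window holds the E-box 130 bases before the start. These matches describe the letters only, and which of the starts these cells used was not measured. Sequence outside these windows was not searched, so a gene without a match may hold either motif elsewhere.

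The carriers of large neutral amino acids were led by SLC7A5 (ENSG00000103257, chromosome 16, 87830023 to 87869507, GRCh38). It was at 91.2, 94.7 and 98.2 FPKM in +Dox replicates 1, 2 and 3, and at 86.7, 76.6 and 71.6 FPKM in -Dox replicates 1, 2 and 3. Every +Dox library lay above every -Dox library, with 4.55 FPKM between the nearest values. The log2 change on log2(FPKM + 1) was 0.28 (SE 0.09, limma 95% interval 0.08 to 0.47, adjusted p = 0.0816), with an exact permutation p of 0.1, the two-sided minimum for 3 against 3 libraries. The pseudogene copies SLC7A5P1 and SLC7A5P2 can take reads from it. They averaged 0.177 and 0.7 FPKM in +Dox and 0.247 and 0.656 FPKM in -Dox. SLC43A1 (LAT3, chromosome 11, 57484534 to 57515780), a sodium-independent carrier of branched-chain amino acids and phenylalanine, was far lower. It was at 1.83, 1.43 and 2.14 FPKM in +Dox and 1.88, 1.78 and 2.03 FPKM in -Dox. The 3 -Dox values lay inside the range of the +Dox values (log2 change -0.06, 95% interval -0.35 to 0.24, limma adjusted p = 0.821).

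The alanine, serine and cysteine exchangers are the paralogs SLC1A4 and SLC1A5, and their mean differences had opposite signs, SLC1A4 without overlap and SLC1A5 with it. SLC1A4 (ASCT1, chromosome 2, 64988477 to 65023865) carries alanine, serine, cysteine and threonine. It was at 2.84, 2.59 and 2.83 FPKM in +Dox and at 1.96, 1.87 and 1.89 FPKM in -Dox. All +Dox values were above all -Dox values, and the -Dox libraries lay within 0.1 FPKM of each other. Its log2 change was 0.37 (SE 0.11, 95% interval 0.13 to 0.61, limma adjusted p = 0.0626), which understates the change of a gene this low: the mean FPKM in +Dox was 1.44 times that in -Dox. Of the 8 genes it had the smallest p, and it passed the threshold under quantile normalization (adjusted p = 0.0380) and with an untrended variance (0.0381), the alternatives in which a transporter gene was called. SLC1A5 (ASCT2, chromosome 19, 46774883 to 46788594), the main sodium-dependent glutamine exchanger of many tumour lines, was at 74.5, 71.6 and 87.3 FPKM in +Dox. In -Dox it was at 92.4, 85.2 and 80.7 FPKM. The groups overlapped, since +Dox replicate 3 lay above -Dox replicates 2 and 3, and the log2 change was -0.15 (95% interval -0.36 to 0.07, limma adjusted p = 0.348). Without +Dox replicate 3 it was -0.23 (adjusted p = 0.0972). An antisense transcript, AC008622.2, shares 780 exon bases with SLC1A5 and was at 0.626 FPKM in +Dox and 1.31 FPKM in -Dox, and reads there cannot be told apart without strand.

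The sodium-coupled carriers of small neutral amino acids and glutamine were SLC38A2 and SLC38A1. SLC38A2 (SNAT2, chromosome 12, 46358188 to 46372773) is the carrier that cells raise when amino acids are short. It was at 328, 327 and 294 FPKM in +Dox and at 283, 295 and 305 FPKM in -Dox, so that +Dox replicate 3 lay among the -Dox values. The log2 change was 0.10 (95% interval -0.08 to 0.28, limma adjusted p = 0.437), it turned to -0.013 under quantile normalization, and it was 0.15 without +Dox replicate 3 (adjusted p = 0.105). SLC38A1 (SNAT1, chromosome 12, 46183063 to 46270017), its neighbour and paralog, was at 51.7, 50.5 and 38.9 FPKM in +Dox. It was at 44.3, 46.8 and 51.1 FPKM in -Dox. The groups overlapped fully and the log2 change was -0.02 (95% interval -0.28 to 0.24, limma adjusted p = 0.931). Without +Dox replicate 3 its sign turned, to 0.11 (adjusted p = 0.411).

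SLC7A1 (CAT1, chromosome 13, 29509414 to 29595688) carries arginine, lysine and ornithine. It was at 18.5, 19.3 and 16.5 FPKM in +Dox and at 19.1, 17.3 and 17.3 FPKM in -Dox. The groups overlapped fully (log2 change 0.01, 95% interval -0.19 to 0.22, limma adjusted p = 0.939). Its sign turned with equal library totals, to -0.038. SLC6A9 (GlyT1, chromosome 1, 43991500 to 44031467), a sodium- and chloride-coupled glycine carrier, was at 1.89, 1.84 and 1.64 FPKM in +Dox and at 1.26, 0.936 and 1.36 FPKM in -Dox. The groups did not overlap, with 0.289 FPKM between the nearest libraries. The log2 change was 0.36 (SE 0.13, 95% interval 0.07 to 0.65, limma adjusted p = 0.111), and the mean FPKM in +Dox was 1.51 times that in -Dox. At this depth, 1 FPKM stands for 14.2 to 18.3 fragments per kilobase of transcript, so counting error weighs on SLC6A9, SLC43A1 and SLC1A4 most. CCDC24, on the opposite strand, shares 404 exon bases with SLC6A9, which is 7.83% of the exon bases of SLC6A9. CCDC24 was at 4.06 FPKM in +Dox and 5.42 FPKM in -Dox, and without strand its reads there cannot be told from those of SLC6A9.

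**Figure D2:**
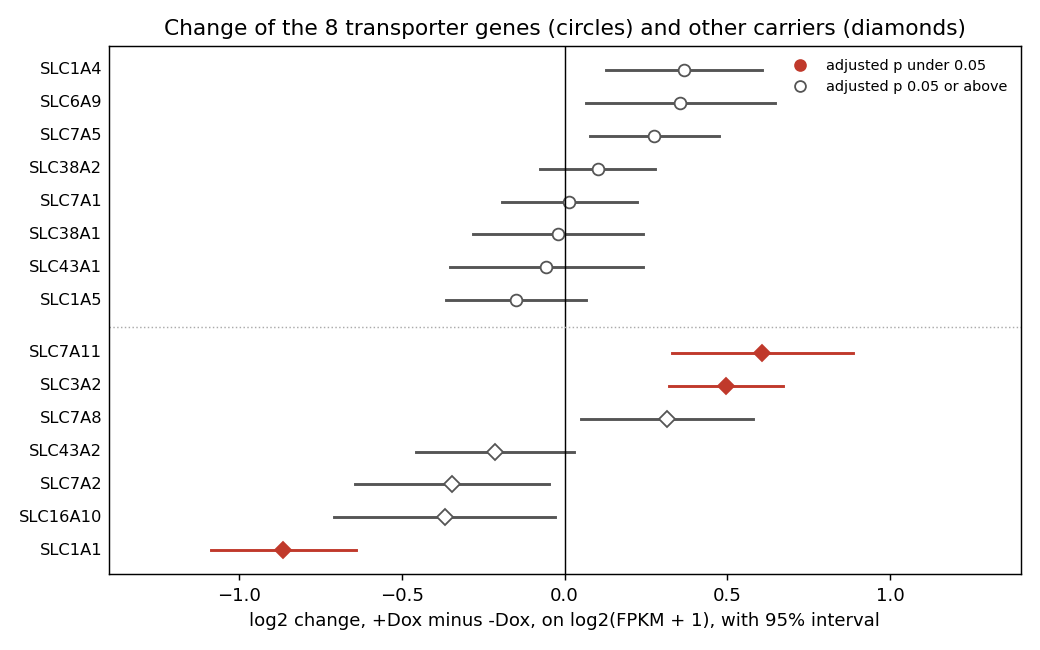
Log2 change on log2(FPKM + 1), +Dox minus -Dox, with limma's 95% interval (n = 3 each), for the 8 transporter genes above the dotted line and for 7 other carriers below it. These 7 had the smallest limma p-values of the 12 other carriers tested, and the rest are not drawn. All 8 transporter genes have open symbols (adjusted p of 0.0626 or above), while SLC7A11 and SLC3A2 are called higher and SLC1A1 lower.

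The order of levels was nearly the same in the 2 groups. FPKM is per length, so genes can be compared. In +Dox the mean levels were 316 ± 19.4 FPKM for SLC38A2, 94.7 ± 3.52 for SLC7A5, 77.8 ± 8.37 for SLC1A5, 47.0 ± 7.08 for SLC38A1, 18.1 ± 1.44 for SLC7A1, 2.75 ± 0.143 for SLC1A4, 1.80 ± 0.361 for SLC43A1 and 1.79 ± 0.128 for SLC6A9 (SD, n = 3). SLC43A1 and SLC6A9 were the neighbours in that order whose libraries overlapped. In -Dox the means were 294 ± 11 FPKM for SLC38A2, 86.1 ± 5.94 for SLC1A5, 78.3 ± 7.67 for SLC7A5, 47.4 ± 3.46 for SLC38A1, 17.9 ± 1.07 for SLC7A1, 1.91 ± 0.0465 for SLC1A4, 1.90 ± 0.125 for SLC43A1 and 1.19 ± 0.221 for SLC6A9. There SLC1A5 overlapped SLC7A5, and SLC1A4 overlapped SLC43A1. SLC7A5 thus stood above SLC1A5 in +Dox and below it in -Dox. Summed over the 8 genes, the level was 570, 569 and 541 FPKM in +Dox and 531, 525 and 531 FPKM in -Dox, and SLC38A2 made up 54.3 to 57.5% of it in +Dox and 53.3 to 57.5% in -Dox.

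Within each transport system a single gene held most of the summed FPKM in both groups. SLC7A5 made up 90.1 ± 0.839% of the summed FPKM of system L in +Dox and 88.8 ± 0.420% in -Dox (SD, n = 3), the rest being SLC7A8, SLC43A1 and SLC43A2. SLC38A2 held 87.1 ± 1.05% of system A in +Dox and 86.1 ± 0.438% in -Dox. SLC1A5 held 96.5 ± 0.316% of the ASC exchangers in +Dox and 97.8 ± 0.210% in -Dox, and the share of SLC1A4 was 3.43 ± 0.266% in +Dox and 2.17 ± 0.108% in -Dox. SLC7A1 held 87.8 ± 1.38% of the cationic system y+ in +Dox and 83.8 ± 1.91% in -Dox, next to SLC7A2 and SLC7A3. Carriers outside these systems were not counted, among them SLC7A6 (10.4 ± 1.09 FPKM in +Dox, 10.5 ± 0.346 FPKM in -Dox). The share is therefore not one of all cationic amino acid carriers. Carriers at or near 0 were SLC38A4, SLC7A10, SLC7A3 and the glycine carrier SLC6A5, each at 0.150 FPKM or below in every library. That is under the 0.164 to 0.212 FPKM that 3 fragments in a 1 kb transcript give, a limit that covers counting error only.

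**Figure D3:**
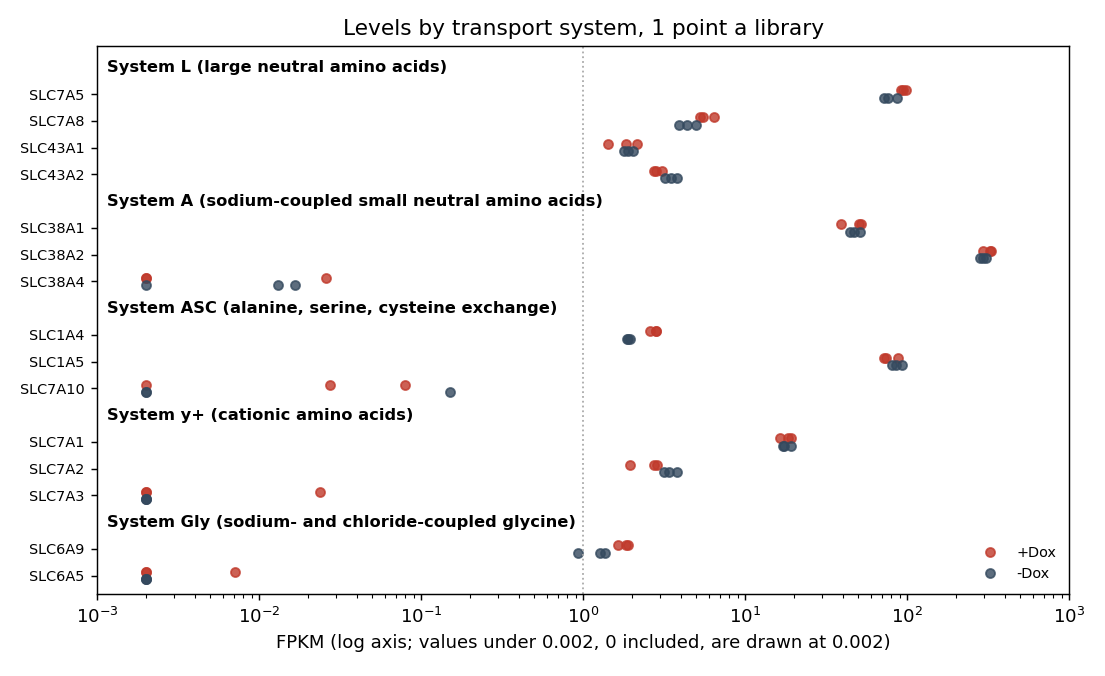
FPKM (log axis) of 15 carrier genes grouped by transport system, 1 point a library, with +Dox drawn above -Dox; the dotted line marks 1 FPKM. SLC7A5, SLC38A2, SLC1A5, SLC7A1 and SLC6A9 are the highest of their systems in all 6 libraries.

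Ratios within a library do not depend on how libraries are scaled, and 6 pairs of carriers were compared this way. SLC7A5 over its heavy chain SLC3A2 was 0.903, 0.909 and 0.881 in +Dox and 1.12, 1.02 and 1.01 in -Dox. All +Dox ratios were below all -Dox ratios, a log2 difference of -0.22. SLC1A4 over SLC1A5 was 0.0381, 0.0361 and 0.0324 in +Dox and 0.0212, 0.0219 and 0.0235 in -Dox, again without overlap (log2 difference 0.68). SLC7A1 over SLC7A5 was 0.203, 0.204 and 0.168 in +Dox and 0.221, 0.226 and 0.241 in -Dox (log2 difference -0.26, no overlap). For these 3 pairs the two-sided exact permutation test gave p = 0.1, the smallest possible here, and 0.2 after Benjamini-Hochberg adjustment over the 6 pairs. The groups overlapped for SLC38A2 over SLC38A1 (6.79 ± 0.666 in +Dox, 6.22 ± 0.224 in -Dox), SLC7A5 over SLC43A1 (54.0 ± 10.9 in +Dox, 41.5 ± 5.58 in -Dox) and SLC7A11 over SLC7A5 (0.123 ± 0.0189 in +Dox, 0.0942 ± 0.0214 in -Dox), each with an exact permutation p of 0.2 (n = 3 each). No pair reached 0.05, which the design cannot give.

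**Figure D4:**
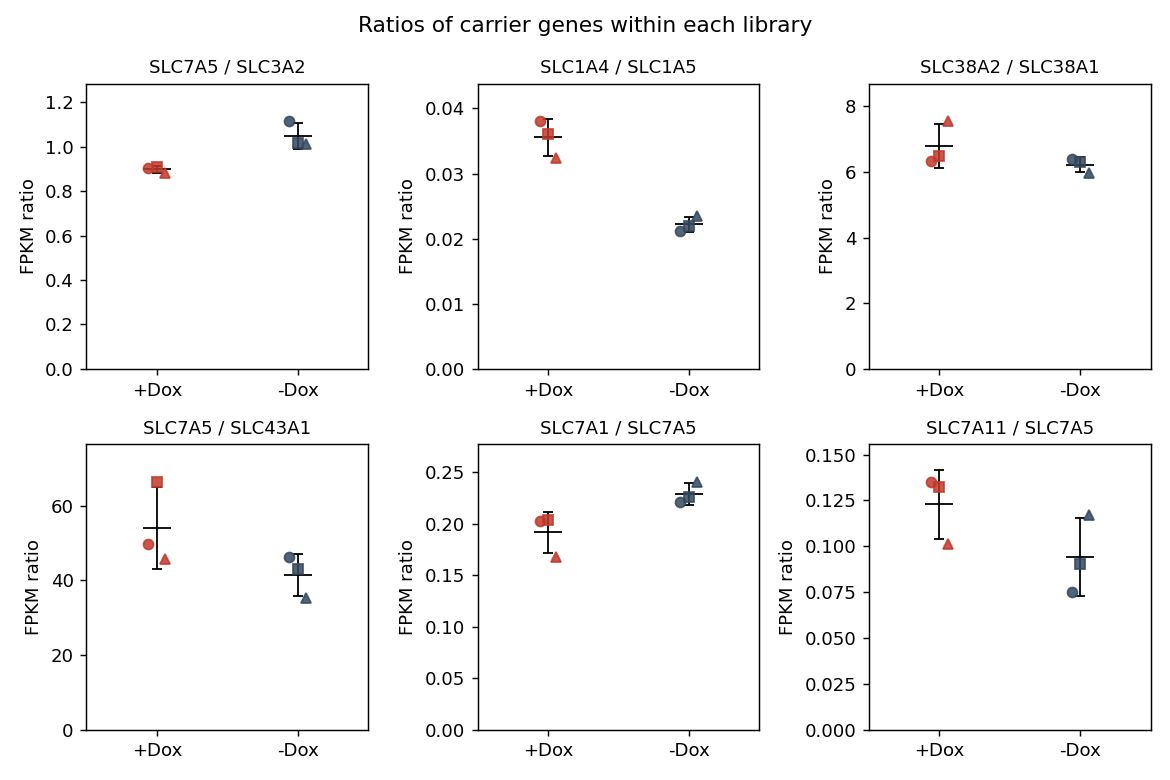
FPKM ratio of 6 pairs of carrier genes within each library, axes from 0; +Dox on the left and -Dox on the right, symbols marking replicates 1 to 3, with black bars for the mean and SD (n = 3). The groups do not overlap for SLC7A5 / SLC3A2, SLC1A4 / SLC1A5 and SLC7A1 / SLC7A5.

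Other carriers of the plasma membrane moved in both directions. Of 30 further carrier genes 12 passed the filter, and 2 of those rose and 1 fell (25% called, against 8.46% of all genes tested). Their median log2 change was -0.03, against -0.0026 for all tested genes. The list was chosen with earlier results of these data known, so its share called cannot be read as enrichment. Those that rose were the chains of the cystine importer, SLC3A2 (106 ± 5.42 FPKM in +Dox, 74.6 ± 3.53 FPKM in -Dox, log2 change 0.50, limma adjusted p = 0.00853) and SLC7A11 (11.6 ± 1.44 FPKM in +Dox, 7.27 ± 0.997 FPKM in -Dox, log2 change 0.61, adjusted p = 0.0220). SLC3A2 is the heavy chain of SLC7A5 as well. SLC1A1 (EAAC1), a carrier of glutamate, aspartate and cysteine, fell: it was at 2.82, 2.87 and 3.23 FPKM in +Dox and at 6.08, 6.19 and 6.39 FPKM in -Dox (log2 change -0.86, SE 0.10, adjusted p = 0.00264). The SLC7A11 call was lost without +Dox replicates 1 and 2 (adjusted p = 0.0559 and 0.0655) and without -Dox replicates 1 and 2 (0.0644 and 0.0864), whereas SLC3A2 and SLC1A1 passed whichever of the 6 libraries was left out. With no filter on low values SLC3A2 and SLC7A11 missed the threshold (adjusted p = 0.0516 and 0.105). SLC7A8 (LAT2), the other SLC3A2-linked light chain of system L, was at 5.74 ± 0.635 FPKM in +Dox and 4.41 ± 0.540 FPKM in -Dox (adjusted p = 0.118). The cationic carrier SLC7A2 was at 2.52 ± 0.492 FPKM in +Dox, 3.44 ± 0.313 FPKM in -Dox (0.128).

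The whole solute carrier family was used as a further comparison. Of 193 tested genes with an SLC symbol, 3 were called higher and 15 lower in +Dox, which is 9.33% against 8.46% of all tested genes, and their median log2 change was -0.08. By direction, 3.69% of all tested genes were called higher and 4.77% lower. The log2 change was positive for 67 SLC genes and negative for 126, against 7176 and 7299 of all tested genes. The 3 higher were SLC7A11, SLC3A2 and SLC31A2, a copper carrier (2.98 ± 0.126 FPKM in +Dox, 1.84 ± 0.245 FPKM in -Dox, log2 change 0.49, limma adjusted p = 0.0328), which was named after its values were seen. SLC1A4 lay above 94.2% of all tested genes in log2 change, SLC6A9 above 93.8% and SLC7A5 above 88.7%, while SLC1A5 lay above 27.8%. The other 4 transporter genes lay between 41.4% and 67.5%.

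**Figure D5:**
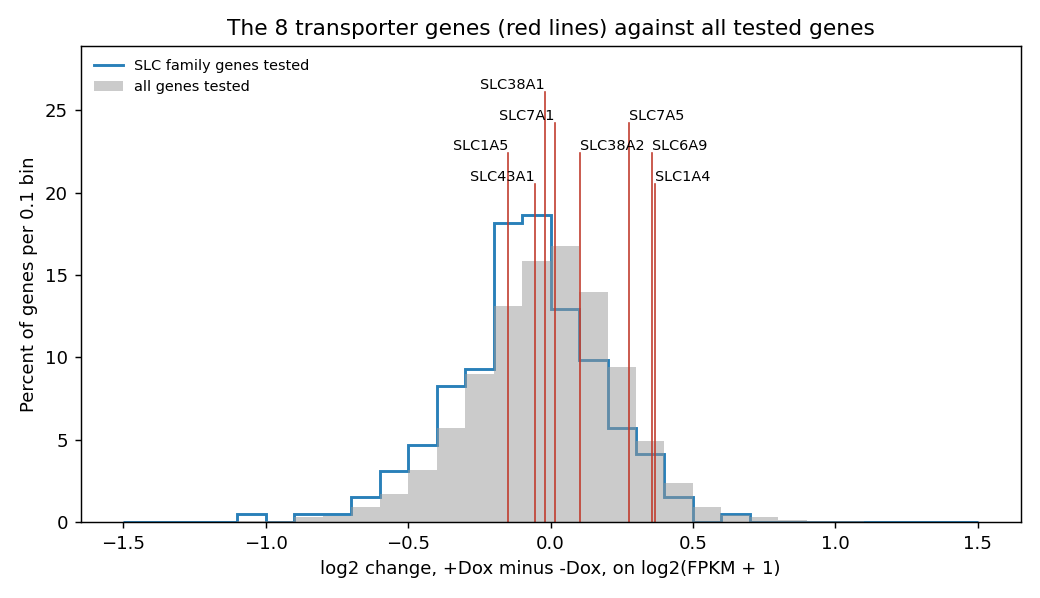
Distribution of the log2 change on log2(FPKM + 1), +Dox minus -Dox, as percent of genes per 0.1 bin, for all 14475 tested genes (grey) and the 193 tested SLC genes (blue line); red lines mark the 8 transporter genes. They spread from -0.15 (SLC1A5) to 0.37 (SLC1A4), and the tails beyond 1.5 in either direction are not drawn.

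Regulators of these carriers moved in the same libraries. Of 10 tested, 3 rose and 1 fell (40% called, against 8.46% of all genes tested). Their median log2 change was 0.14. The list was chosen with earlier results of these data known, so its share called cannot be read as enrichment. ATF4, which switches on amino acid carrier and synthesis genes, was at 324, 331 and 361 FPKM in +Dox and at 296, 259 and 254 FPKM in -Dox (log2 change 0.33, limma adjusted p = 0.0479). Leaving out any of the 6 libraries ended its call (adjusted p 0.0547 to 0.185). Its partner CEBPB rose (28.0 ± 3.24 FPKM in +Dox, 19.9 ± 1.81 FPKM in -Dox, log2 change 0.47, adjusted p = 0.0292), with the call lost without +Dox replicates 2 and 3 (0.0629 and 0.0543) and -Dox replicates 2 and 3 (0.114 and 0.0742). DDIT3, the stress factor CHOP, rose as well (35.4 ± 5.85 FPKM in +Dox, 16.5 ± 0.0247 FPKM in -Dox, log2 change 1.05, adjusted p = 0.00228). MYC, a known activator of glutamine and leucine carrier genes, fell: it was at 58.8, 57.1 and 64.3 FPKM in +Dox and at 99.6, 94.5 and 91.8 FPKM in -Dox (log2 change -0.66, adjusted p = 0.00302). The DDIT3 and MYC calls held whichever library was left out, and those of ATF4 and CEBPB were also lost with no filter (0.138 and 0.119). The others did not pass, among them the ubiquitin ligase genes NEDD4L (26.9 ± 7.73 FPKM in +Dox, 22.6 ± 1.17 FPKM in -Dox, adjusted p = 0.475) and RNF5 (13.1 ± 2.41 FPKM in +Dox, 14.8 ± 0.995 FPKM in -Dox, 0.398), whose products are known to remove carriers from the surface or degrade them. The part of these regulators in the transporter values was not tested.

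Carriers of inner membranes and the amino acid sensors of mTORC1 were set beside the surface carriers. These lists too were chosen with earlier results of these data known, so their shares called cannot be read as enrichment. Of 7 tested lysosomal carriers none was called by limma (8.46% over all genes). At an unadjusted p below 0.05 there were 2 higher and 2 lower, where all genes had 13.6% higher and 14.3% lower. Their median log2 change was -0.03. The smallest p-values belonged to the arginine-sensing SLC38A9 (7.24 ± 0.826 FPKM in +Dox, 10.5 ± 2.66 FPKM in -Dox, adjusted p = 0.0981) and to SLC66A1, an exporter of cationic amino acids (5.40 ± 0.680 FPKM in +Dox, 4.06 ± 0.489 FPKM in -Dox, 0.108). Of 9 tested mitochondrial carriers 2 fell and 0 rose (22.2% called, against 8.46% over all genes), with a median of -0.02. They were SLC25A29, a carrier of basic amino acids (12.4 ± 1.33 FPKM in +Dox, 18.8 ± 1.0 FPKM in -Dox, log2 change -0.56, limma adjusted p = 0.0144), and SFXN3, a sideroflexin of the serine carrier family (22.5 ± 0.493 FPKM in +Dox, 29.3 ± 2.30 FPKM in -Dox, log2 change -0.37, 0.0323). Without -Dox replicate 2 SLC25A29 missed the threshold (0.0648), and SFXN3 missed it when any library other than -Dox replicate 3 was left out (0.0504 to 0.129). Both missed it with no filter (0.0710 and 0.101).

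Of 34 tested genes of mTORC1 and its amino acid sensing, 1 rose and 1 fell, and the 5.88% called was near the 8.46% over all genes. The median log2 change was 0.03. Of the 35 genes listed, CASTOR1 did not pass the filter and was not tested. It was at 0.302 ± 0.0797 FPKM in +Dox and 0.986 ± 0.128 FPKM in -Dox, without overlap but at a low level. SESN2, which binds leucine and holds mTORC1 back, rose (7.37 ± 0.753 FPKM in +Dox, 4.79 ± 0.339 FPKM in -Dox, log2 change 0.53, limma adjusted p = 0.0216). RRAGA, a Rag GTPase that brings mTORC1 to the lysosome, fell: it was at 19.9, 22.1 and 24.2 FPKM in +Dox and at 34.5, 33.5 and 30.9 FPKM in -Dox (log2 change -0.56, adjusted p = 0.0117). The SESN2 call was lost without +Dox replicate 1 (0.0599) and without -Dox replicates 2 and 3 (0.0869 and 0.0543), and the RRAGA call without -Dox replicate 2 (0.0557). Both were lost with no filter (0.0816 for SESN2 and 0.0688 for RRAGA).

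Genes whose profile over the 6 libraries was most like that of a transporter were listed for the 3 with the smallest p-values. Likeness was the root mean square difference between centred log2(FPKM + 1) values, given as a description without a test. This scale understates the change of low genes. On it the change was 0.37 for SLC1A4 and 0.36 for SLC6A9, while the log2 ratio of mean FPKM was 0.53 and 0.59. Their more abundant neighbours can therefore have smaller fold changes than they do. Nearest to SLC1A4 were ZFAND6 (0.0200), the dynein chain gene DYNC1I2 (0.0220), HEXIM1, an inhibitor of transcription elongation (0.0246), and PSAT1, an enzyme of serine synthesis (0.0281). These 4 were all called higher in +Dox, with limma adjusted p between 0.0196 and 0.0282, where 3.69% of all tested genes were. The 3 transporter genes were themselves higher in +Dox without overlap. Genes picked for a like profile therefore share that difference by choice, and their calls are not a separate result. Nearest to SLC7A5 were CDK11B (0.0152), the mitochondrial carrier gene SLC25A25 (0.0180), AMPD2, an AMP deaminase (0.0195), and PISD, an enzyme of phosphatidylethanolamine synthesis (0.0234), none of them called. CDK11B has a near-identical copy and its values are uncertain. Nearest to SLC6A9 were COMMD2 (0.0369), TNKS1BP1 (0.0405), C12orf49 (0.0485) and TRPV3 (0.0496), of which TNKS1BP1 was called higher (adjusted p = 0.0387).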

How the data were processed

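The 6 libraries were grouped by their titles, 3 with and 3 without doxycycline, and all 6 table columns matched a sample description. The authors' deposited values were read as FPKM from their scale and totals, the header giving no unit. Per the submitters' processing notes, the tools included STAR, RSEM, Cufflinks, Bowtie, BWA and kallisto, with no role given. Strandedness is not stated. The notes name the build hg19, but of 39331 versioned identifiers found in GENCODE 29, 39321 had its GRCh38 locus with starts counted from 0; coordinates are therefore GRCh38, counted from 1. FPKM is scaled to the fragments of each library, so abundant genes move the others, and genes with near-identical copies exchange reads. The FPKM totals themselves were not equal, at 521832 to 586911. Depth was estimated from the lowest values of single-exon genes over 1000 bases.

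The 14475 genes that reached 1 FPKM in 3 or more libraries entered a limma fit on log2(FPKM + 1) (limma 3.58.1, R 4.3.3; trended, robust empirical Bayes, group only), with Benjamini-Hochberg adjustment and a threshold of 0.05, two-sided. Single genes and pair ratios had exact permutation tests over libraries. The fit was tested on data simulated from the tested genes, in 3 simulations with 200 changed genes each. It called 5.33% of genes changed 1.25-fold, 50% changed 1.5-fold, 75.3% changed 2-fold, 97.3% changed 4-fold and 0.0327% of unchanged genes. Changes of 1.5-fold or less, the range of most of the 8 members, can therefore go uncalled. The members, lists and pairs were chosen with earlier results of these data known, and the transport systems after their values were seen. Named genes were the 8 members, CAPG, the partners SLC3A2 and SLC7A11, and overlapping or copied genes. Called genes of each list were also named, or the 2 smallest p-values where none was called, and 4 profile neighbours each for 3 members. SLC7A8, SLC7A2, SLC7A6, CASTOR1, NEDD4L, RNF5 and the markers were added after their values were seen. Alternatives changed the pseudocount, filter, scaling, variance model, block and libraries.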

Additional observations from a re-analysis of the deposited data

How the results depend on the processing

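The 8 transporter genes gave 0 calls in either direction in 13 of 15 alternatives, and 1 higher call, SLC1A4, under quantile normalization (log2 change 0.43) and with an untrended, non-robust variance (0.37). Adjusted p-values of SLC7A5 lay between 0.0592 and 0.241 and of SLC6A9 between 0.0721 and 0.330 over their alternatives. Signs turned for SLC7A1 with equal totals (-0.038), and for SLC38A2 (-0.013) and SLC43A1 (0.0043) under quantile normalization; the cause was not tested. With 1 library left out, SLC7A1 ranged from -0.032 to 0.075, SLC38A1 from -0.093 to 0.11, SLC43A1 from -0.14 to 0.044, and no transporter gene was called. A filter of 5 FPKM left SLC1A4, SLC6A9 and SLC43A1 without a value. The 6 pair ratios kept their direction throughout.

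Calls over all genes moved from 534 higher and 691 lower to 53 and 100 without a filter on low values, to 354 higher with an untrended variance, and to between 85 and 403 higher and 157 and 597 lower with 1 library left out. Other carriers called higher numbered 0 without the filter and 1 to 2 with a library left out. Mitochondrial carriers called higher numbered 1 at 5 FPKM or under quantile normalization; those called lower numbered 0 without the filter, 1 with an untrended variance and 0 to 2 with a library left out. Sensing genes called higher and lower numbered 0 and 0 without the filter, 2 and 2 with equal totals, and 0 to 1 each with a library left out; 2 were higher with median-ratio scaling. Regulators called higher numbered 1 without the filter and 1 to 2 with a library left out.

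With the replicate block, 69 genes were higher and 142 lower, with 0 other carriers, 1 regulator and 0 sensing genes higher, 1 mitochondrial carrier and 0 sensing genes lower, and again 0 transporter genes. Deviations of same-numbered libraries correlated at -0.0433, 0.00936 and -0.0231, and those of different-numbered libraries at -0.0856 to 0.102. No shared effect of the replicate number was seen. With 3 libraries a group, this cannot exclude that same-numbered libraries shared a culture or batch. Equal totals moved the median of all genes to -0.05. Depth limits SLC6A9, SLC43A1 and SLC1A4 most.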
